A study of Mus musculus with 18 samples.

Results

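The genes described here stood apart on the middle day of a three-point time course of myelination in culture: 61 genes were higher on day 10 than on both day 0 and day 22, and 19 genes were lower on day 10 than on both. They were chosen among 14543 genes that carried a RefSeq symbol and passed a filter on dim probes, so the peak genes made up 0.419% and the dip genes 0.131% of the genes examined. A gene entered as a peak when its mean level over the 6 arrays of day 10 exceeded each of the other day means by 0.8 or more on the log2 scale and its probe passed the scanner's background test on all 6 arrays of day 10. Dip genes were below both other days by 0.8 or more, with the probe well above background on all 12 arrays of days 0 and 22. Of the genes that met the background condition, the rule took 0.432% of 14127 as peaks and 0.141% of 13504 as dips. The genes were thus chosen by their measured day means, and every value of day 10 against the other days given for them below is a description and carries no test. Both counts depended on the processing. With another background correction, normexp with an added offset of 50, the rule took 18 peaks and 11 dips, all among these members. The part of the offset in the lower counts was not tested. Without 1 batch of 1 day the rule took 38 to 103 peaks and 12 to 30 dips.

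The cultures were dorsal root ganglion explants of C57BL/6J mouse embryos at E13.5, grown on Matrigel for 12 days in growth medium before the start. Day 0 was sampled just before the switch to myelination medium, day 10 after 10 days in it, when myelination is early, and day 22 when mature sheaths were abundant. Each day had 3 batches, which stand for different pools of embryos, and 2 arrays a batch, so 6 arrays a day and 18 in all. No culture kept in growth medium was analysed here, so time and medium cannot be told apart, and in RNA from whole explants fewer cells of a type and less RNA per cell cannot be told apart.

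In such explants sensory neurons send out axons that Schwann cells ensheath and then wrap with myelin, beside fibroblasts, satellite glia and macrophages. Schwann cells pass through a promyelinating state in which the POU-domain transcription factor Pou3f1, also known as Oct6 or SCIP, is high and helps to switch on Egr2, which drives the myelin genes. In developing nerve Pou3f1 is known to be transient, and Notch and Wnt signals, retinoids and axonal growth factors are all known to act on Schwann cells or sensory neurons during these steps.

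Levels are given as the log2 of the processed probe intensity minus the log2 of the 75th percentile of the same array, so a level of 0 means a spot as bright as that percentile and each unit is a doubling. Levels of different probes were not set against each other. The distance of day 10 from the nearer of the other days is called the margin. The 18 arrays were alike in quality: between 54.8% and 61.5% of the spots were well above background. The deposited array files and the authors' table of normalized values differed in the batch number of 12 of the 18 arrays, never in the day. Tests were therefore run with both assignments, and a difference was called only where it passed with both. By the array files' numbering no gene varied between batches within days past an adjusted p of 0.05 in limma's F test (0% of 14543 genes, none of the 80 members), where 765 genes and 6 members had an unadjusted p under 0.05. By the value table's numbering, 1534 genes (10.5%) did, among them 27 of the 61 peak genes and 7 of the 19 dip genes. Limma's consensus correlation of the 2 arrays of a batch was -0.019 by the array files' numbering and 0.36 by the value table's. By the array files' numbering the arrays of a batch were thus no more alike than other arrays of the day. By the value table's numbering they were more alike. Which numbering is right was not tested beyond these values. SEs given below by the array files' batches may therefore not measure the spread between pools. All 18 listed pan-neuronal genes and 20 of 21 listed peripheral myelin genes passed the filter on dim probes. These were well above background throughout day 10. The filter required that on all arrays of at least 1 day, so these shares were in part built in. List genes called measured below are those that passed it.

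**Figure D1:**
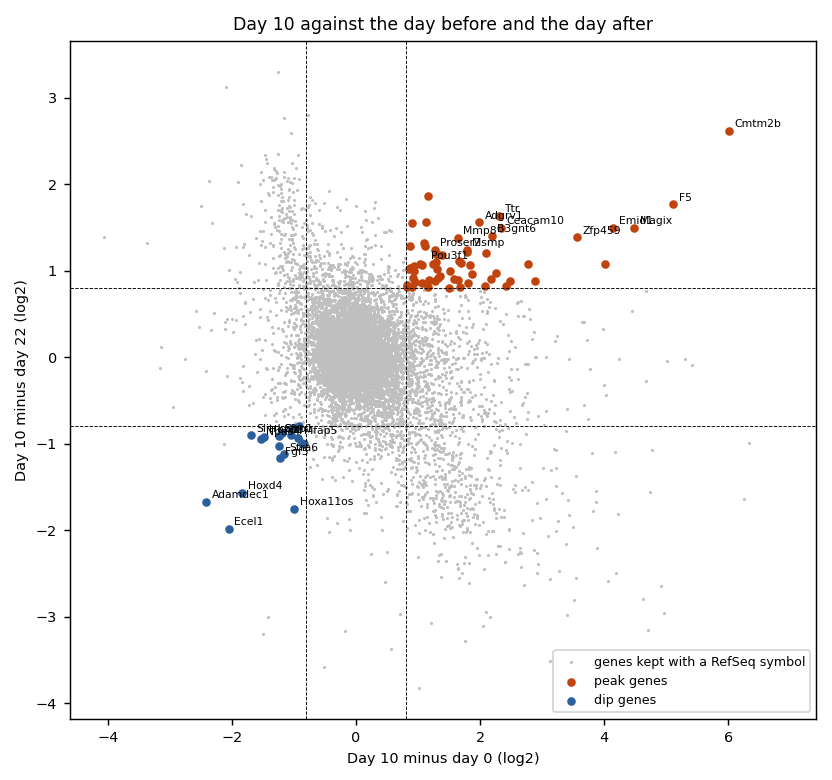
Day 10 minus day 0 (horizontal axis) against day 10 minus day 22 (vertical axis), both log2, for 14543 genes (grey), the 61 peak genes (red) and the 19 dip genes (blue). Dashed lines mark 0.8 in each direction, and the names are those of members of large margin in each direction and Pou3f1. Cmtm2b and F5 lie farthest to the upper right and Ecel1 has the largest margin among the dips.

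Margins of the peak genes ran between 0.80 and 2.62, with a median of 1.02, and 31 of the 61 reached 1. Those of the dip genes ran between 0.80 and 1.98, with a median of 0.92, and 6 of the 19 reached 1. Day 22 was the nearer day for 47 of the 61 peaks and 15 of the 19 dips, and day 0 for the other 14 and 4. For 18 of the 61 peaks all 6 arrays of day 10 lay above all 12 arrays of the other days (0.289% of all genes), and for 3 of the 19 dips, Ecel1, Fgf5 and Mmp17, all 6 lay below (0.213% of all genes). The rule used these arrays, so nothing is read from those shares. Probes of 28 peaks and 16 dips were well above background on all 18 arrays. Near the threshold, Syn3, Art5 and Vwa7 were taken with margins of 0.81, 0.81 and 0.80, while Syndig1l, Smok4a and Kcnh2 stayed outside with 0.7985, 0.79 and 0.77. Among the dips Mef2c, Dhrs3 and Try5 were taken with 0.82, 0.81 and 0.80, and Phyhd1, Niban1 and Pdgfb stayed outside with 0.76, 0.75 and 0.74.

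Pou3f1 was the only gene of the 19 measured Schwann cell myelination regulators that met the rule. Its 6 arrays ran between 3.51 and 5.42 on day 0 (median 4.91), between 5.53 and 5.96 on day 10 (median 5.71) and between 2.62 and 5.55 on day 22 (median 4.87). Day 10 was both the highest and the narrowest day, and 1 array of day 22 lay just above the lowest of day 10, so the days overlapped slightly. The day means were 4.61, 5.72 and 4.44, so day 10 stood 1.12 above day 0, a 2.17-fold higher intensity, and 1.28 above day 22, or 2.44-fold. Much of that distance lay in batch 1 of the value table, whose 2 arrays of day 22 read 2.62 and 3.79 and whose day 0 arrays were also the lowest of their day. Day 10 exceeded the higher of the other days by 2.06 within batch 1, 0.42 within batch 2 and 0.62 within batch 3. Without batch 1 of day 22 the margin of 1.12 was 0.67, below the threshold. Between day 22 and day 0 Pou3f1 differed by -0.17 ± 0.32 (SE by the array files' batches, 3 a day). Limma's adjusted p was 0.70 when batches came from the array files and 0.84 when they came from the value table.

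Other transcription regulators among the peaks were Lmo1, Csrp2, Npas1, Zfp459 and Hoxc8. Lmo1, a LIM-only cofactor, had day means of 0.72, 2.80 and 1.97. Csrp2, a LIM-domain protein, had day means of 3.84, 5.68 and 4.61. In both, the day 22 mean lay between those of days 0 and 10. Without batch 1 of the value table on day 22 the margin of Lmo1 was 0.56 and that of Csrp2 0.57, both below the threshold. Within batches 1, 2 and 3 of the value table the Csrp2 margin was 2.205, 0.006 and 0.985. Npas1, a bHLH-PAS repressor of transcription, had day means of -3.25, -1.86 and -3.05, its 6 arrays of day 10 all above the other 12. Zfp459, a zinc finger gene, was not above background on any array of day 0, where its arrays ran between -7.97 and -5.25 (median -7.48). On day 10 it ran between -3.75 and -3.19 (median -3.46) and on day 22 between -7.01 and -3.95 (median -4.33), so day 10 stood clear of both. Its day 10 intensity was at least 4.36-fold that of day 0 and at least 2.29-fold that of day 22; 4 of the 6 arrays of day 22 were above background.

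Hox genes, which hold the positional identity of a spinal level, appeared on both sides. Of the 24 measured, 1 was a peak and 2 were dips, against 0.419% and 0.131% of all genes. Nothing is read from these small counts. Hoxc8 ran between -5.12 and -3.41 on day 0 (median -4.49), between -3.91 and -1.57 on day 10 (median -2.63) and between -5.24 and -2.86 on day 22 (median -3.38). Hoxd4, a dip, ran between -3.66 and -0.50 on day 0 (median -2.34), between -4.80 and -2.26 on day 10 (median -3.90) and between -4.27 and -0.27 on day 22 (median -2.48). The days of both genes overlapped, and for Hoxd4 a single array of day 10 at -2.26 stood far above the next at -3.86. Without batch 1 of the value table on day 22 the Hoxd4 margin of 1.57 was 0.77, below the threshold. Hoxd8 ran between -1.68 and 1.75 on day 0 (median 0.34), between -1.74 and 0.27 on day 10 (median -1.50) and between -1.37 and 1.37 on day 22 (median -0.72). Its margin of 0.92 fell to 0.18 without batch 1 of the value table on day 22, so that dip rested on those 2 arrays. The antisense transcript Hoxa11os, also a dip, ran between -4.17 and -0.13 on day 0 (median -3.57), between -4.22 and -3.16 on day 10 (median -3.70) and between -3.90 and 0.74 on day 22 (median -2.71). In it, day 10 was uniformly low while 2 arrays of day 0 and 3 of day 22 were far above the rest of their day.

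The members below are ordered by the known roles of their products, an order made after their values were seen and with no count behind it. Nrarp, a Notch target that dampens Notch signalling, had day means of -2.37, -1.44 and -2.43. Nkd1, a Wnt target that binds Dishevelled and dampens Wnt signalling, had day means of 2.86, 4.19 and 3.27, and a second probe of the gene gave a margin of 1.05. Without batch 1 of the value table on day 22 the margin of Nrarp was 0.36 and that of Nkd1 0.25, both below the threshold. Sfrp1, a secreted Wnt antagonist, was a dip, with arrays between -0.41 and 0.88 on day 0 (median 0.22), between -1.65 and -0.20 on day 10 (median -1.07) and between -2.57 and 1.98 on day 22 (median 0.58). Its day 22 spread enclosed all arrays of both other days, and without batch 1 of the value table on day 22 its margin of 0.91 was 0.11. Sh3gl3, the endocytic protein endophilin A3, had day means of 3.12, 4.18 and 3.11, and Rasd1, a dexamethasone-inducible Ras protein, had -4.11, -1.87 and -2.84.

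Promoter windows are shown for a peak gene of each of these kinds, Lmo1 and Nrarp, and for the dip gene Hoxd4, because they hold letters of the transcription factor motifs that were searched. They are from RefSeq (mouse GRCm38.p6), 250 bases before to 50 after the start, 5′ to 3′ on the strand of the gene, with motif letters in capitals. The Lmo1 window at chr7:109175158-109175457 on the minus strand has an AP-1 match at base 11 and an Egr match at base 245, counted from the 5′ end of the window. In the window of Nrarp, at chr2:25180508-25180807 on the plus strand, an E-box starts at base 143. That of Hoxd4, at chr2:74721728-74722027 on the plus strand, has its E-box at base 249.
Lmo1: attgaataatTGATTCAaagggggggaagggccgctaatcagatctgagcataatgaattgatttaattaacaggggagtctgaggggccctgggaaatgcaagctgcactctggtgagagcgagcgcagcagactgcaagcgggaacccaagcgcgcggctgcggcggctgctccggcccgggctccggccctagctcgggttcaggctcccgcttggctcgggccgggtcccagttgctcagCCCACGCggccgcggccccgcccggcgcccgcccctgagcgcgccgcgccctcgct
Nrarp: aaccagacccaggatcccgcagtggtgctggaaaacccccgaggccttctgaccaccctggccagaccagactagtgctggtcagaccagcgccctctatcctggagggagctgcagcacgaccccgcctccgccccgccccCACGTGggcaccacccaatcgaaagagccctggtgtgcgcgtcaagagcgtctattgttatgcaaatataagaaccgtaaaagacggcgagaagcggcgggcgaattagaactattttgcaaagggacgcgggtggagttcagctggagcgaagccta
Hoxd4: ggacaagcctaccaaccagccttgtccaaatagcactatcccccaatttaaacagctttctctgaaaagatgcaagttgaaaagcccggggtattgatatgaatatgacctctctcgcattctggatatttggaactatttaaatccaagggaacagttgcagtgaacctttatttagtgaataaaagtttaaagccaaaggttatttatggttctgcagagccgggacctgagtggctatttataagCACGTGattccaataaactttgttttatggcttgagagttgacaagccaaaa

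Windows of this length were found for 56 of the 80 members, 45 peaks and 11 dips, and both strands were searched. The E-box CACGTG was in 6 of 45 peak windows and 2 of 11 dip windows, against 7.24% of all 27025 windows. AP-1 (TGANTCA) was in 5 and 1, against 7.93%, and the Egr motif GCGTGGG in 4 and 1, against 4.92%. The hypoxia element ACGTG, which every E-box of the form above also contains, was in 11 and 2, against 19.7%. An amino acid response element (TGATGNAA) was in 1 and 1, against 4.06%, the interferon element core TTCNNTTT in 5 and 3, against 23.9%, and the cyclic AMP element TGACGTCA in none of either, against 1.88%. These are matches of letters in the windows and carry no test.

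Emid1, an extracellular protein with an EMI domain, ran between 0.22 and 2.44 on day 0 (median 1.97), between 5.39 and 6.13 on day 10 (median 5.60) and between 2.26 and 5.23 on day 22 (median 4.59). Day 10 stood clear of both other days, while days 22 and 0 overlapped through the lowest array of day 22; a second probe gave a margin of 1.60. F5, coagulation factor V, ran between -6.53 and -5.50 on day 0 (median -6.01), between -1.40 and -0.61 on day 10 (median -0.78) and between -4.38 and -0.74 on day 22 (median -2.40). On day 0 1 of its 6 arrays was well above background, and day 22 overlapped day 10 through its highest array. Another probe of F5 gave a margin of 2.26. Mmp8, a collagenase, ran between -5.26 and -3.23 on day 0 (median -4.21), between -2.96 and -2.30 on day 10 (median -2.63) and between -5.63 and -3.14 on day 22 (median -3.67), with day 10 clear of both.

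Ttr, the carrier of thyroxine and of retinol-binding protein, ran between -4.40 and -1.36 on day 0 (median -2.30), between -1.13 and 0.40 on day 10 (median -0.55) and between -5.28 and -1.01 on day 22 (median -1.50). Day 10 was clear of day 0 and overlapped day 22 at its lower end. Ceacam10, a secreted member of the carcinoembryonic antigen family, ran between -6.87 and -5.62 on day 0 (median -6.36), between -4.83 and -2.85 on day 10 (median -4.09) and between -7.53 and -4.08 on day 22 (median -4.97). It was above background on no array of day 0 and on 3 of day 22, so its day 10 intensity was at least 3.02-fold that of day 0 and at least 1.90-fold that of day 22. Msmp, a microseminoprotein, ran between -6.44 and -4.18 on day 0 (median -5.28), between -4.32 and -2.91 on day 10 (median -3.35) and between -6.64 and -2.69 on day 22 (median -4.73), and in batch 1 of the value table its day 22 was above its day 10. Further members of this kind, by their day means, were Mmrn2 (-2.45, -1.21 and -2.29), a matrix glycoprotein of blood vessels, and Col9a3 (-3.34, -2.43 and -3.35), a chain of type IX collagen. In both genes the arrays of day 10 lay above those of the other days. Mamdc2, a matrix proteoglycan, had day means of -1.79, 0.02 and -0.84.

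**Figure D2:**
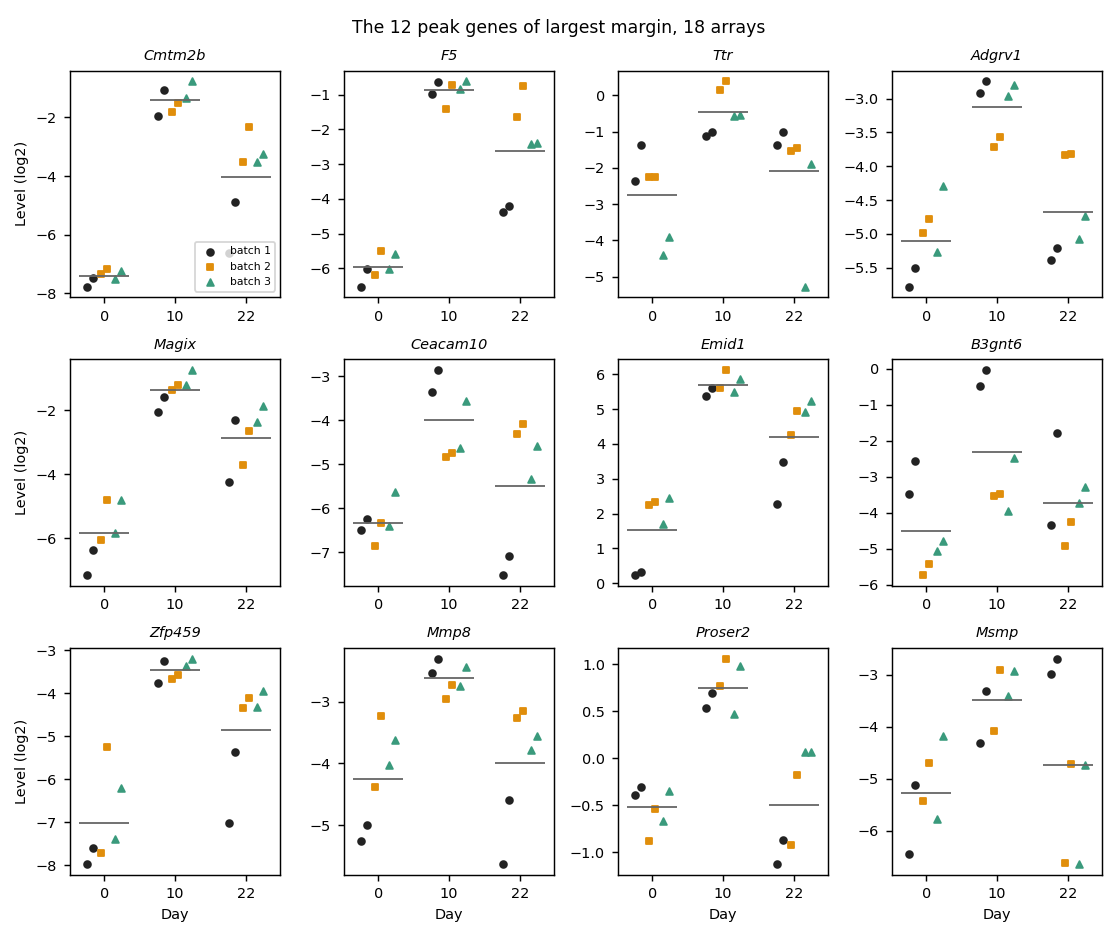
Levels (log2, with the array's 75th percentile at 0) on days 0, 10 and 22 for the 12 peak genes of largest margin, 1 point an array, with symbols for batches 1 to 3 of the value table and a line at the day mean. In Cmtm2b, Adgrv1, Emid1, Zfp459, Mmp8 and Proser2 all 6 arrays of day 10 lie above the other 12. In Cmtm2b, F5, Adgrv1, Ceacam10, Emid1, Zfp459 and Mmp8 the 2 arrays of batch 1 are the lowest of day 22.

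Among receptors and other membrane proteins, Cmtm2b, a MARVEL-domain protein of the chemokine-like factor family, had the largest margin, 2.62. It ran between -7.78 and -7.19 on day 0 (median -7.41), between -1.95 and -0.75 on day 10 (median -1.41) and between -6.63 and -2.33 on day 22 (median -3.52). None of the arrays of day 0 and 4 of day 22 were above background, so day 10 was at least 18.1-fold day 0 and at least 5.82-fold day 22. Adgrv1, a very large adhesion receptor, ran between -5.78 and -4.29 on day 0 (median -5.12), between -3.72 and -2.74 on day 10 (median -2.94) and between -5.39 and -3.83 on day 22 (median -4.91). Day 10 was clear of both days, but the gene's other probe, above background on no array, gave a margin of -0.08. Its relative Adgrb2, an adhesion receptor of the brain angiogenesis inhibitor family, had day means of 1.69, 2.97 and 1.78, and its other probe a margin of 1.23. Slc36a2, a proton-coupled amino acid transporter, had day means of -2.31, 1.70 and 0.62, and Amhr2, the receptor of anti-Müllerian hormone, had -5.22, -2.45 and -3.53. The adenosine receptor Adora1 had -1.90, -0.39 and -1.39.

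Agtr2, an angiotensin receptor, had -3.40, -2.11 and -3.21, with arrays that spanned several units on each day. Within batches 1, 2 and 3 of the value table its margin was -0.07, -0.14 and 1.52, so day 10 exceeded both other days only in batch 3. Lingo4, a leucine-rich repeat membrane protein, had day means of -5.70, -4.54 and -6.41. It was above background on 2 arrays of day 0 and none of day 22, so day 10 was at least 1.72-fold day 0 and at least 1.90-fold day 22. With dim arrays set to the lowest measurable signal its margin was 0.78, below the threshold. Omg, the oligodendrocyte myelin glycoprotein, had -5.48, -3.60 and -4.56. Il17rb, an interleukin-17 receptor, had -4.84, -3.89 and -4.76, and its other probe, above background on 1 array, a margin of 0.05. Sorcs3, a sorting receptor, had -4.90, -3.97 and -5.03. The remaining membrane genes were Nipal1, Cacnb4, Atp6v1c2, Lrrc55 and Tmem233, whose margins ran between 0.82 and 1.20.

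Among enzymes and intracellular proteins, Magix and Proser2 led. Magix, an X-linked PDZ-domain gene, ran between -7.17 and -4.82 on day 0 (median -5.94), between -2.06 and -0.73 on day 10 (median -1.30) and between -4.25 and -1.88 on day 22 (median -2.52), and overlapped only between days 10 and 22. Proser2, a proline- and serine-rich protein, ran between -0.87 and -0.31 on day 0 (median -0.47), between 0.46 and 1.06 on day 10 (median 0.73) and between -1.13 and 0.06 on day 22 (median -0.52). Its day 10 was clear of both, and its day 22 enclosed day 0. B3gnt6, a glycosyltransferase that makes core 3 O-glycans, ran between -5.74 and -2.55 on day 0 (median -4.93), between -3.95 and -0.03 on day 10 (median -2.97) and between -4.92 and -1.78 on day 22 (median -4.00). Here day 10 itself was split, with batch 1 of the value table at -0.47 and -0.03 and the other 4 arrays at -2.47 or below. Without that batch of day 10 its margin was 0.36.

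Padi2, which converts arginine to citrulline in proteins that include myelin basic protein, had day means of -0.06, 1.73 and 0.51. All 6 of its arrays of day 10 were above the other 12, and another probe gave a margin of 1.20. Thtpa, thiamine triphosphatase, had day means of 1.71, 2.53 and 1.72, with day 10 again clear. B3gnt5, which starts lacto-series glycolipids, had -1.89, -0.54 and -1.48. Aox3, an aldehyde oxidase, Hkdc1, a hexokinase-like enzyme, Cyp4f15, a fatty acid hydroxylase of the cytochrome P450 family, and Art5, an ADP-ribosyltransferase, had margins between 0.81 and 0.90. Pcp4, a calmodulin-binding peptide of neurons, had -0.24, 0.89 and -0.68, and the vesicle protein Syn3 had -2.96, -2.05 and -2.87, although its other probe, above background on no array, gave -0.07. The kinase genes Smok2a and Smok2b, with margins of 0.87 and 0.85, are near-identical copies, so their probes may share a transcript and they are uncertain as separate members. The other peaks were Gm765, Syne4, Bfsp2, Itprid1, Wdr86, Zfhx2os, Pdzrn4, 1700001L05Rik, Zar1, Dok5 and Vwa7, with margins between 0.80 and 1.20.

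Pmel, the fibril protein of melanosomes, was the only melanocyte gene that met the rule. It ran between -4.21 and -3.24 on day 0 (median -3.48), between -3.52 and -1.19 on day 10 (median -2.51) and between -4.31 and -3.51 on day 22 (median -3.70). Day 10 overlapped day 0, and its lowest array touched the highest of day 22. Of the 10 listed melanocyte markers, all on the array, 6 passed the filter on dim probes. These 6 were above background on every array of day 10, which the filter in part built in. Their summed linear level ran between 11.7 and 21.4 on day 0, 61.4 and 92.6 on day 10 and 16.8 and 89.0 on day 22. The part of melanocyte RNA in the Pmel peak was not tested.

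The dip genes were led by Ecel1, a membrane peptidase known to be induced in injured sensory neurons. Its arrays ran between -1.31 and 0.81 on day 0 (median -0.78), between -3.26 and -1.92 on day 10 (median -2.70) and between -1.80 and 0.78 on day 22 (median -0.55). Every array of day 10 was below every other array, and the day 10 mean was 1.98 below day 22 and 2.05 below day 0. It was also the only dip whose margin was 0.8 or more within each of the 3 batches of the value table. Fgf5, a fibroblast growth factor, ran between 0.34 and 2.90 on day 0 (median 0.86), between -0.20 and 0.18 on day 10 (median -0.14) and between 0.87 and 1.61 on day 22 (median 1.03), and its day 10 was also clear of both days. Mmp17, a membrane-type metalloproteinase, was the third with no overlap, at day means of 2.29, 1.44 and 2.44. Npas4, an activity-dependent transcription factor of neurons, ran between -4.61 and -2.02 on day 0 (median -4.00), between -6.87 and -4.40 on day 10 (median -4.97) and between -4.61 and -4.10 on day 22 (median -4.26). Only 3 of its arrays of day 10 were above background, and the days overlapped.

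Adamdec1, a secreted ADAM-like protease, ran between -0.04 and 1.10 on day 0 (median 0.40), between -2.82 and -0.94 on day 10 (median -2.33) and between -1.66 and 2.97 on day 22 (median -1.19). Mfap5, a microfibril protein and the only fibroblast gene of the 17 measured that met the rule, ran between -1.10 and 3.06 on day 0 (median 1.91), between 0.17 and 1.34 on day 10 (median 0.49) and between 0.02 and 3.06 on day 22 (median 1.34). The days of Adamdec1 overlapped between 10 and 22, and in Mfap5 days 0 and 22 each enclosed day 10. Without batch 1 of the value table on day 22 the margin of Adamdec1, 1.67, was 0.63 and that of Mfap5, 0.93, was 0.18. The summed linear level of the fibroblast list ran between 1034 and 1377 on day 0, 1138 and 1469 on day 10 and 1230 and 1611 on day 22, and its part in the Mfap5 dip was not tested.

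Stra6, the membrane receptor for retinol uptake, ran between -2.68 and -0.25 on day 0 (median -1.03), between -2.97 and -1.64 on day 10 (median -2.54) and between -3.51 and 1.86 on day 22 (median -1.13), so day 22 enclosed day 10. Dhrs3, which reduces retinaldehyde to retinol, had day means of 5.73, 4.70 and 5.51. The margin of Stra6, 1.12, was 0.12 without batch 1 of the value table on day 22, and that of Dhrs3 was 0.61. Slitrk6, a synaptic adhesion protein, ran between 0.69 and 1.76 on day 0 (median 1.14), between -1.84 and 1.24 on day 10 (median -0.73) and between -0.53 and 0.93 on day 22 (median 0.47). Its day 10 arrays were high in batch 1 of the value table and low in the others. Sphk1, a sphingosine kinase, had day means of 3.32, 2.12 and 3.00, Csmd1, a complement regulator of the nervous system, had 1.30, 0.25 and 1.15, and Atp8b1, a phospholipid flippase, had -2.06, -2.93 and -1.94. Mef2c, a transcription factor, had -3.63, -4.60 and -3.78. Try5 belongs to the trypsin family of close copies, so its probe is uncertain, and its margin of 0.80 changed to -0.26 without batch 1 of the value table on day 10.

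**Figure D3:**
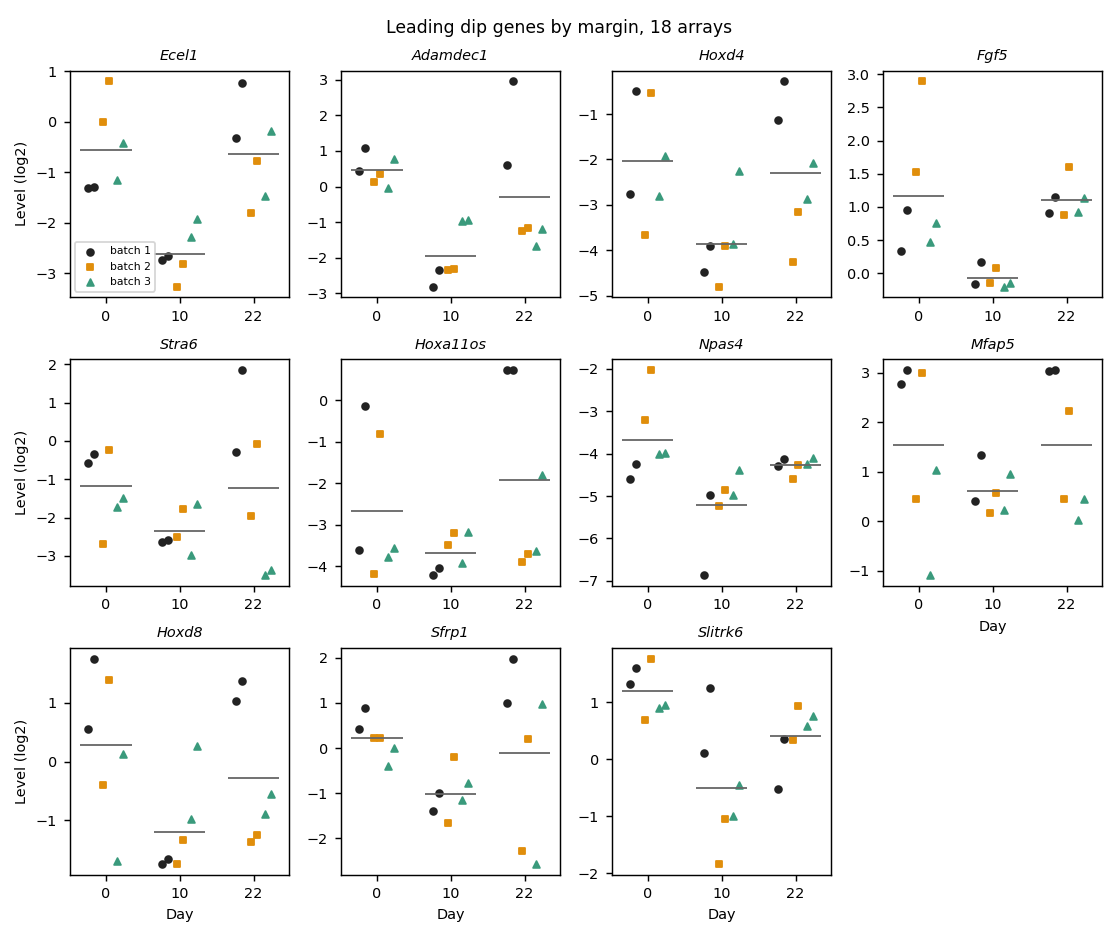
Levels (log2, with the array's 75th percentile at 0) on days 0, 10 and 22 for 11 of the 12 dip genes of largest margin, 1 point an array, with symbols for batches 1 to 3 of the value table and a line at the day mean. All 6 arrays of day 10 lie below the other 12 in Ecel1 and Fgf5, and in Adamdec1, Hoxa11os and Hoxd8 the highest array of day 22 belongs to batch 1.

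The difference between day 22 and day 0 was fitted over all genes. The rule used the means of both days: a gene must be far from each of them to enter, so genes with a small difference between these days entered more readily. It passed with both batch assignments for 10 of the 61 peak genes higher on day 22 and 0 lower, against 15.6% of all genes higher and 19.7% lower. Low counts of calls are in part built in by the rule, so nothing is read from these shares about the peaks as a class. The 10 genes were Cmtm2b, F5, Magix, Slc36a2, Emid1, Zfp459, Amhr2, Aox3, Lmo1 and Mamdc2. The SEs given with these differences come from the array files' batches, 3 a day. Slc36a2 averaged 0.62 on day 22 and -2.31 on day 0, a difference of 2.93 ± 0.40 (SE). Its adjusted p from limma was 0.000681 by the array files' batches and 0.00251 by the value table's. F5 averaged -2.63 on day 22 and -5.97 on day 0, a difference of 3.35 ± 0.40, with limma's adjusted p at 0.000347 and 0.00638. Emid1 averaged 4.19 on day 22 and 1.54 on day 0, a difference of 2.65 ± 0.47, with limma's adjusted p at 0.00247 and 0.0170.

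Lmo1 averaged 1.97 on day 22 and 0.72 on day 0, a difference of 1.25 ± 0.25, with limma's adjusted p at 0.00459 and 0.0140. Cmtm2b and Zfp459 were not above background on day 0, so day 22 was at least 2.95-fold and at least 1.67-fold day 0. Aox3 was above background on 1 array of day 22 and 1 of day 0, so both of its days lay near background, and F5 and Magix were above background on 1 and 2 arrays of day 0. Leaving out 1 batch of the value table at a time kept 7 to 10 of the 10 past the threshold; Emid1, Zfp459 and Mamdc2 lost it without batch 2 or batch 3 of day 22, Mamdc2 without batch 3 of day 0, and Aox3 without batch 2 or 3 of day 0 or batch 1 of day 22. With the batch as a block 9 of the 10 passed both ways, Mamdc2 did not, and Bfsp2, lower on day 22, and Zfhx2os joined.

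For the other 51 peaks no difference between day 22 and day 0 was called, which does not show that the levels were equal: with the array file batches alone 20 peaks were higher and 1 lower. The median difference over the 61 peaks was 0.41, and 47 were above 0. None of the 19 dip genes passed (0 of 19 with limma in either assignment, and 0 at an unadjusted p under 0.05), against the same 15.6% and 19.7% of all genes and with the same limit from the rule. Their median difference was -0.16, and 4 were above 0. By the array files' batches the intervals were wide for several dips: Sfrp1 differed by -0.34 ± 0.82, Hoxa11os by 0.75 ± 0.81 and Stra6 by -0.05 ± 0.79. By the same batches Ecel1 differed by -0.07 ± 0.19 and Mmp17 by 0.16 ± 0.14. These SEs hold for that numbering only. In batches 1, 2 and 3 of the value table Ecel1 averaged -1.30, 0.40 and -0.78 on day 0 and 0.23, -1.28 and -0.83 on day 22.

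**Figure D4:**
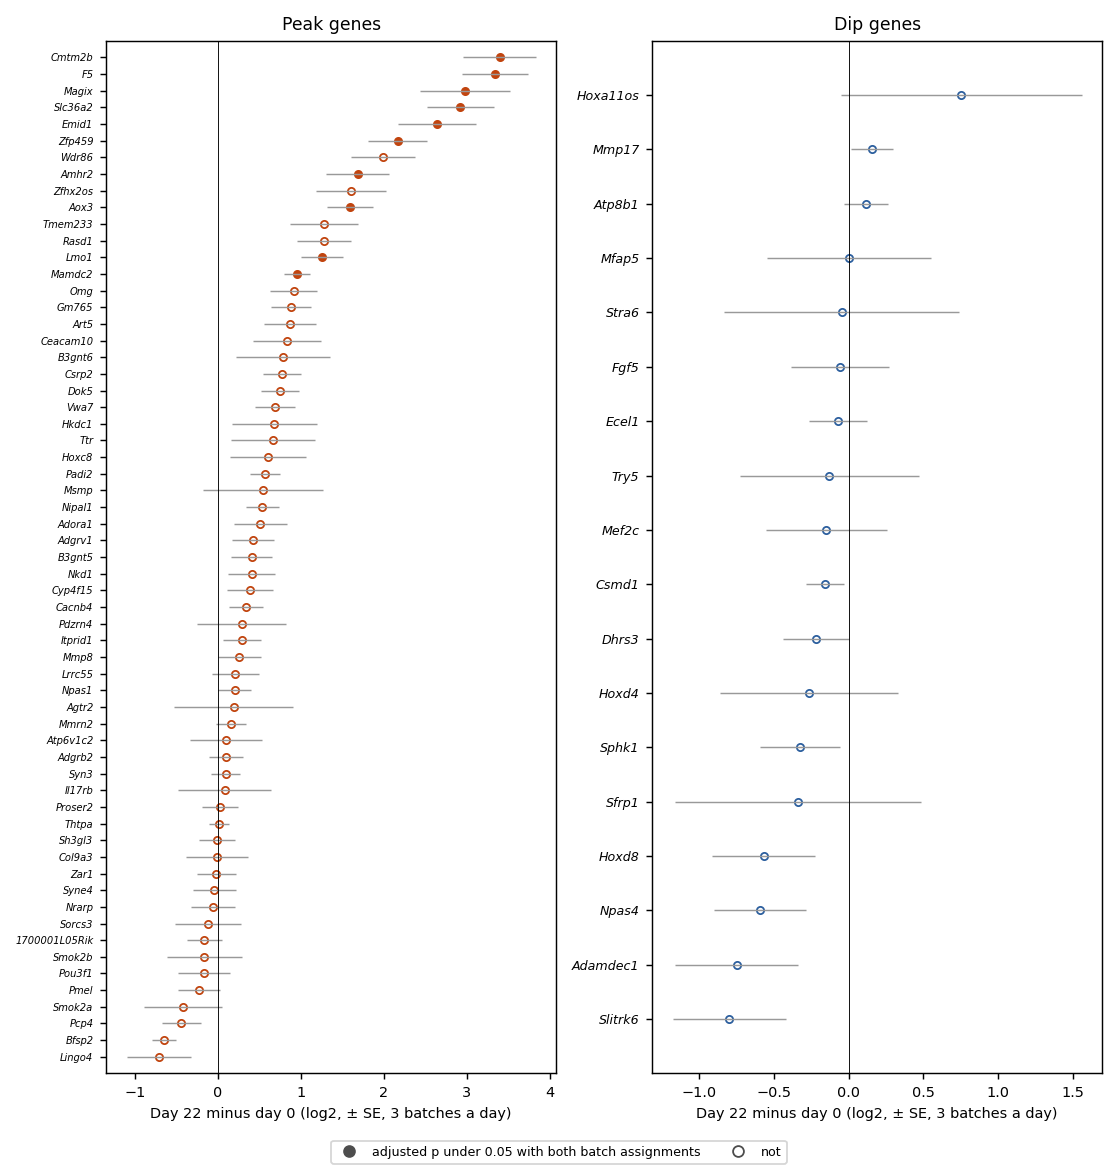
Day 22 minus day 0 (log2, bars ± SE by the array files' batches, 3 a day) for the 61 peak genes (left) and 18 of the 19 dip genes (right). Filled points mark the 10 genes whose limma adjusted p was under 0.05 with both batch assignments, and no dip gene is filled.

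Batch 1 of the value table on day 22 weighed on many members. Without its 2 arrays 28 of the 61 peaks and 8 of the 19 dips kept a margin of 0.8 or more, and the median margin was 0.79 for peaks and 0.74 for dips. The direction stayed for 60 peaks and all 19 dips, and Smok2b turned to -0.04. Of the 19 listed macrophage genes 17 passed the filter on dim probes, all of these above background on day 10. Their median level was 4.28 in batch 1 of day 22, against 2.81 and 2.43 in batches 2 and 3 of the day. Their summed linear level ran between 67.8 and 101 on day 0, 127 and 210 on day 10 and 192 and 623 on day 22. Fibroblast genes had medians of 5.91, 5.30 and 5.38, pan-neuronal genes 4.04, 4.03 and 4.46, and peripheral myelin genes 4.67, 4.96 and 5.36 in batches 1, 2 and 3 of day 22. The part of these cell types in the members' margins was not tested.

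**Figure D5:**
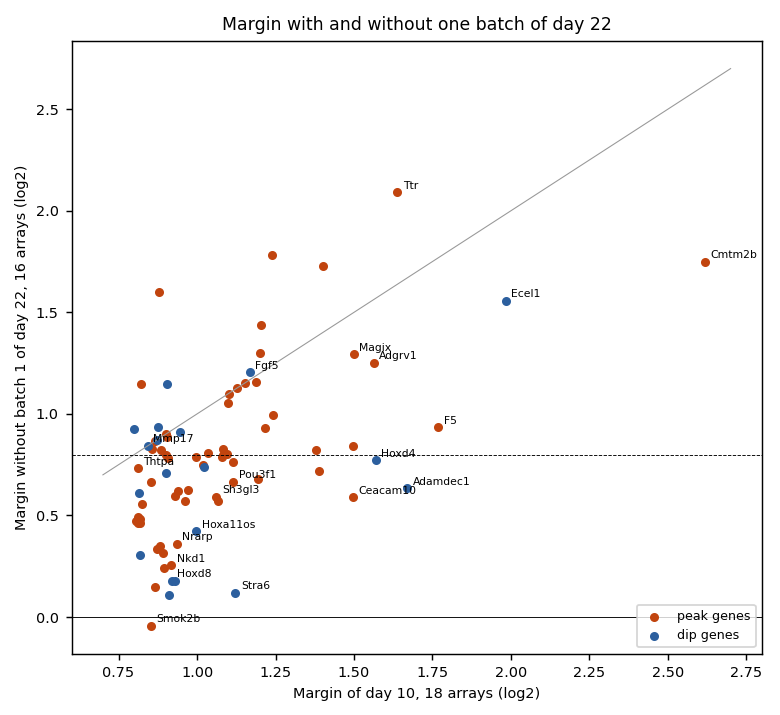
Margin of day 10 over all 18 arrays (horizontal axis) against the margin without batch 1 of the value table on day 22 (vertical axis, 16 arrays), both log2, for the 61 peak genes (red) and the 19 dip genes (blue). The grey line marks equal margins and the dashed line 0.8; 28 peaks and 8 dips stay above the dashed line, and Smok2b falls below 0.

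Set against the other days of the same value table batch, day 10 was above both in all 3 batches for 43 of the 61 peaks and below both in all 3 for 11 of the 19 dips, where 4.43% and 4.41% of all genes did so. These values also come from the arrays that chose the genes. The margin within a batch was 0.8 or more in all 3 batches for 6 peaks, Cmtm2b, Magix, Gm765, Npas1, Lingo4 and Amhr2, and for Ecel1 among the dips. Over the leave-outs of 1 batch of 1 day, under both assignments, 14 peaks never had a margin below 0.8. They were Cmtm2b, F5, Ttr, Adgrv1, Magix, Emid1, Mmp8, Proser2, Padi2, Gm765, Npas1, Lingo4, Mmrn2 and Syne4, and Ecel1 was the only such dip. Lingo4 is in both groups of peaks, but most of its arrays of days 0 and 22 were not above background. Within slide 1 the margin kept its sign in 60 of 61 peaks and 18 of 19 dips, and within slide 2 in all 61 and 19.

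Genes that are no members were tested through pathway and cell type lists, by day 10 against the mean of days 0 and 22. A gene that rose by day 10 and stayed high can pass this test without meeting the rule. Over all genes, day 10 against the mean of days 0 and 22 passed for 310 higher (2.13%) and 167 lower (1.15%) by the array files' batches. By the value table's batches limma called 0 genes, where 953 were higher and 776 lower at an unadjusted p under 0.05 and where a fit on single arrays with duplicateCorrelation called 151 and 55. No gene of the 37 lists therefore passed with both. With the array file batches alone, peripheral myelin genes had 4 of 20 higher and none lower, with a median difference of 0.61, against -0.00228 over all genes. Their median level was 3.36, 5.28 and 5.12 on days 0, 10 and 22. Hypoxia and glycolysis genes had 3 of 22 higher, with a median difference of 0.34, and immature or repair Schwann cell genes 1 of 20 higher and 3 lower, with a median of -0.16. Of the 5 measured melanocyte genes other than Pmel 2 were higher, and the median difference of these 5 was 0.14.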

How the data were processed

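Total RNA of 18 cultures was labelled with Cy3 and hybridised to one-colour Agilent mouse arrays. The authors deposited scanner files of Agilent Feature Extraction (10.7.1 per the submitters' processing notes); per the file headers the processed intensity is background-subtracted. The authors' deposited value table holds normalized intensity with an unstated method. Flags for background and outliers were used as deposited. Here log2 of the processed intensity minus the array's 75th percentile was used, outlier spots were left out, spots of a probe averaged, and the brightest probe of a gene kept; 30432 of 55681 probes passed the filter (well above background on all arrays of a day), giving 22855 features. Precision is limited by how many arrays there were. The 2 arrays of each batch were averaged within a day and fitted with limma 3.58.1 (R 4.3.3) on 3 day groups, with Benjamini-Hochberg adjustment over all features. The fit was tested on simulated data. These main fits did not pair the days. Among the fits, only those with the batch as a block took batch numbers to pair the days. The study's design text says that the numbers mark batches from different embryo pools. Deviations of same-numbered samples correlated between -0.131 and 0.374 (array files) and between -0.0847 and 0.459 (value table). The correlations were above 0.1 in 6 and 8 of 9 pairs, so the pairing is uncertain. Normexp used an offset of 50 and the median signals in place of the mean signals planned. Members, lists and motifs were chosen with earlier results of these data known. Genes named with array ranges are the first 12 in each direction by margin and members in a list, with the 3 genes on each side of the threshold; a dip gene among them is counted but its values are not reported here. P-values of the fits on batch averages measure the spread between averages of 2 arrays grouped by batch number. By the array files' numbering those 2 arrays were no more alike than other arrays of the day. P-values and SEs by that numbering may therefore not measure the spread between embryo pools. P-values of the F test set batches against the spread between the 2 arrays of a batch, and the duplicateCorrelation fits used single arrays.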

Additional observations from a re-analysis of the deposited data

Results flagged for a closer look

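For 27 members, the leading genes by margin and those in a list, each of the 81 groups of 6 arrays was searched for an extreme array whose gap to the next exceeded Dixon's 95% critical value; chance gives about 1 in 20 groups, and 4 were found. The lowest array of Ttr on day 22 was -5.28, against -1.88 for the next, and it lowered the mean of a day on which the other 5 arrays were close together. The highest array of Hoxd4 on day 10 was -2.26, against -3.86 for the next, in a gene whose day 10 is the low day. Npas4 had its lowest array of day 10 at -6.87, against -5.24 for the next, and its lowest of day 22 at -4.61, against -4.28. The causes were not tested.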

How the results depend on the processing

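The rule took 61 peaks and 19 dips; applied again under other settings, it took 18 and 11 with normexp background correction, 65 and 17 after quantile normalization or in the authors' table, 172 and 55 on slide 1 (49 of the 61 and 15 of the 19 among them), 48 and 15 on slide 2, 82 and 35 on the first and 88 and 21 on the second technical arrays. They were 133 and 39 at a threshold of 0.6, 31 and 6 at 1.0, 89 and 55 with no condition on background, and 28 and 16 above background on all 18 arrays. Leaving out 1 batch of 1 day gave 38 to 103 peaks and 12 to 30 dips; without batch 3 of day 22 the peaks were 97 (array files) and 103 (value table), and without batch 1 of day 22 they were 42 and 38, the dips 12 and 14; the dips without batch 3 of day 22 were 27 and 29. Apart from the settings on single slides or technical arrays, margins reversed for Try5 (-0.26) and Smok2b (-0.043). On slide 1 they reversed for Msmp (-0.074) and Hoxa11os (-0.13). On the first technical arrays 60 of 61 peaks kept their sign, and on the second 18 of 19 dips did. Genes higher and lower on day 10 numbered 310 and 167, 0 and 0 with the value table batches (also with the replicate block), on either slide and on the first technical arrays, 4 and 0 on the second, 138 and 30 without a filter, 312 and 117 with the replicate block, 513 and 377 with duplicateCorrelation, 151 and 55 with it on the value table batches, 104 and 27 with slide as a block too, and 0 to 510 and 0 to 299 in the leave-outs, 54 and 9 without batch 1 of day 10 (array files), 5 and 2 without batch 2 of day 0 and 28 and 5 without batch 1 of day 22 (value table). Peak genes that differed between day 22 and day 0 with the array file batches numbered 21, 10 with the value table batches, 11 with their replicate block, 22 with the block of the array files, 13 with duplicateCorrelation on the value table batches and 11 with slide as a block too, 10 and 6 on slides 1 and 2, 7 and 9 on the first and second technical arrays, 8 above background on all arrays and 8 to 26 in the leave-outs. Dips numbered 2 on slide 1 and 0 to 2 in the leave-outs. Settings with the value table batches in the leave-outs, duplicateCorrelation on them, the floor for dim arrays (52 and 17) and the median of a day (50 and 18) were chosen after seeing the data. The causes were not tested. Among the members' calls of day 22 against day 0, the blocked fits changed those of Mamdc2, Bfsp2 and Zfhx2os and no other.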

Other observations

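Related genes that did not meet the rule are given for comparison, chosen after their values were seen and with no test. In the Notch pathway, where Nrarp was a peak, the target Hes1 had day means of -1.14, -1.95 and -1.61 on days 0, 10 and 22, lowest on day 10, and Heyl had -1.23, -3.21 and -3.51. Among Wnt feedback genes, where Nkd1 was a peak, its relative Nkd2 had 2.96, 2.16 and 2.63, the opposite order, and Axin2 had -2.34, -2.96 and -2.95. In the retinoid pathway, where Stra6 and Dhrs3 were dips and the carrier Ttr a peak, the retinoic acid receptor Rarb had 1.87, 1.70 and 1.67 and the binding protein Crabp2 had 0.34, 0.00 and 0.86. Egr2, the myelin regulator downstream of Pou3f1, had 3.41, 3.85 and 3.13.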
